A study of Mus musculus with 14 samples.

Results

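The subunits of the ligand-gated ion channels opened by GABA, glycine, acetylcholine and, for the 5-HT3 receptor, serotonin were followed in cells of the embryonic mouse cortex. The set holds the genes whose symbol names a GABA-A receptor subunit (alpha, beta, gamma, delta, epsilon, pi, theta or rho), a glycine receptor subunit, a nicotinic acetylcholine receptor subunit or a 5-HT3 receptor subunit. It comprised 37 of the 18193 genes measured, with 74 probe sets. There were 15 GABA-A, 5 glycine, 15 nicotinic and 2 5-HT3 subunit genes. Each gene was read from the 1 of its probe sets whose mean over the 14 arrays was highest. Values are log2 probe set levels, so that a difference of 1 is a doubling. A gene was tested where its level lay above 4, called the dim level here, in at least 3 arrays, and 8 of the 37 subunits passed, out of 10295 genes that passed in all.

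These receptors are rings of homologous subunits around an ion pore, and the mix of subunits sets the transmitter, the kinetics and the pharmacology. GABA-A receptors are built mainly from alpha and beta subunits with a further kind of subunit, glycine receptors from alpha subunits with the beta subunit, and neuronal nicotinic receptors either from alpha and beta subunits or from the alpha7 subunit alone. In the embryonic cortex GABA and glycine act before most synapses exist, and they commonly depolarise young cells because intracellular chloride is high.

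All arrays came from CD1 embryos. A DNA vector was injected into the lateral ventricle at E14.5 and driven into the lining progenitors by electric pulses (in utero electroporation). Electroporated cells were purified by FACS 24 h or 48 h later. At 24 h there were 3 arrays of cells with the control vector, CtrlGFP, and 3 with Fezf2GFP, and at 48 h there were 4 of each. Fezf2GFP is the vector for Fezf2, a zinc finger transcription factor of corticofugal projection neurons. Injection, pulses, vector DNA and sorting are thus shared by all groups. The study asked which genes follow Fezf2 overexpression in progenitors that otherwise make callosal neurons, and the 2 times give the course within each vector. The promoter of the vectors, and whether an array pools several embryos, were not given in the sources used here. The labels leave unsaid whether replicate arrays stem from different litters, and p-values therefore reflect only how far these arrays spread, which may be technical in part.

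The Fezf2 probe set ran against the labels. Its level was 11.30 ± 0.42 (SD, n = 3) with CtrlGFP and 9.44 ± 0.11 (n = 3) with Fezf2GFP at 24 h, a log2 fold change of -1.86 (limma adjusted p = 0.0324). At 48 h it was 10.15 ± 0.48 and 9.33 ± 0.70 (n = 4 each; log2 fold change -0.82, adjusted p = 0.239). The 24 h call held under 18 of 27 alternative settings. The settings that lost it included those without CtrlGFP replicate 2 or 3, or without any 1 of the Fezf2GFP arrays at 24 h (adjusted p from 0.0929 to 0.157). Whether this probe set lies within the insert of the vector is not given here, so what it says of the labels cannot be told, and "with Fezf2GFP" below means the arrays labelled Fezf2GFP. Array medians ranged from 3.26 to 3.50, highest in CtrlGFP 24 h replicate 1 and CtrlGFP 48 h replicate 2, and correlations within groups from 0.942 to 0.993. The summed linear level of 3 erythroid markers was 14064.7 in CtrlGFP 24 h replicate 1 and 1005.6 in Fezf2GFP 24 h replicate 3, against 15.1 to 61.7 in the other 12 arrays. The high sums came from Hbb-y, since Hba-a1 and Alas2 were below 4 on all arrays. Between 24 h and 48 h with CtrlGFP, 5 of 7 intermediate progenitor markers fell and 2 of 9 neuron markers rose. Of all tested genes 12.6% passed there in either direction, and 5.88% were called higher. With Fezf2GFP the marker counts were 4 of 7 and 2 of 9, against 12.1% of all tested genes in either direction and 6.38% higher. In sorted bulk cells, fewer cells of a type and less RNA per cell cannot be told apart.

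Most of the subunits gave no level above the dim level. Of the 37, 28 lay at or below 3.48 on all 14 arrays, and none of these 28 spanned more than 0.49 from its lowest to its highest array. All muscle-type nicotinic subunits were among them: Chrna1 (2.20 to 2.28), Chrnb1 (2.54 to 2.65), Chrnd (1.60 to 1.71), Chrne (2.04 to 2.14) and Chrng (2.20 to 2.32). No marker of muscle, the tissue of those subunits, passed the filter, out of 8 measured. The epithelial or retinal GABA-A subunits Gabrp (2.39 to 2.51), Gabrr1 (2.28 to 2.51) and Gabrr2 (2.07 to 2.15) were also below the dim level throughout.

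Other GABA-A subunits below it were Gabra3 (2.49 to 2.67), Gabra6 (2.56 to 2.69), Gabrd (2.06 to 2.17), Gabre (2.64 to 3.13), Gabrg1 (3.19 to 3.48), Gabrg3 (2.91 to 3.06) and Gabrq (2.03 to 2.12). The glycine receptor alpha subunits Glra1 (3.02 to 3.45), Glra3 (2.92 to 3.25) and Glra4 (2.34 to 2.42) were below it too. So were the neuronal nicotinic subunits Chrna2 (1.91 to 1.99), Chrna3 (2.43 to 2.59), Chrna4 (2.90 to 3.14), Chrna5 (2.58 to 2.74), Chrna6 (2.16 to 2.27), Chrnb3 (2.08 to 2.15) and Chrnb4 (2.15 to 2.27), and Chrna9 of sensory hair cells (2.80 to 3.12). Htr3a (1.71 to 1.80) and Htr3b (1.98 to 2.07), the 5-HT3 subunits, completed the list. A low probe set value is not evidence that the transcript is absent, since probes differ in how well they bind. Gabra5, an alpha subunit of extrasynaptic GABA-A receptors, was the 1 untested gene with any value above the dim level. It reached 5.28 in CtrlGFP 48 h replicate 1 and 4.81 in Fezf2GFP 48 h replicate 3, with its lowest array at 3.28.

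**Figure D1:**
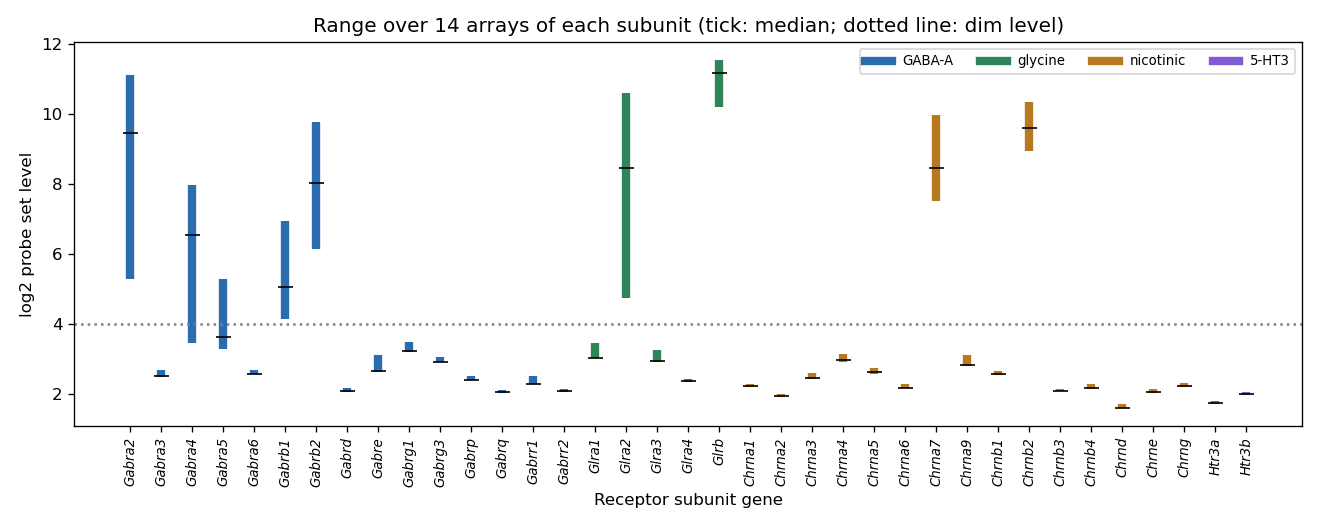
Lowest to highest log2 probe set level over the 14 arrays for each of the 37 subunit genes, coloured by receptor family, with a tick at the median and a dotted line at the dim level of 4. The 8 tested genes rise above the line, Gabra5 crosses it in 2 arrays, and the other 28 stay at or below 3.48; probe sets of different genes are not on a common scale of abundance.

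The 8 tested subunits were Gabra2, Gabra4, Gabrb1 and Gabrb2 of the GABA-A receptor, Glra2 and Glrb of the glycine receptor, and Chrna7 and Chrnb2 of the nicotinic receptor. A moderated F test over the 4 groups (limma, Benjamini-Hochberg adjusted over 10295 genes) called 6 of them, Gabrb1 with an adjusted p of 0.0461 and Chrna7 with 0.0198 among them. Over all tested genes the same test called 20.6%. The 8 lay above the dim level in 13 or 14 of the 14 arrays. The count describes these 8 and not the 37, and no test set them against other genes. Their promoters, for the 4 genes called in a comparison of 2 groups, are shown from RefSeq on GRCm38.p6, each from 250 bases before to 50 after the annotated start on the gene's own strand. Capitals mark a GC box (GGGCGG, either strand) or a TATA box (TATAAA, either strand).
Gabra2, chr5:71095800-71096099, minus strand: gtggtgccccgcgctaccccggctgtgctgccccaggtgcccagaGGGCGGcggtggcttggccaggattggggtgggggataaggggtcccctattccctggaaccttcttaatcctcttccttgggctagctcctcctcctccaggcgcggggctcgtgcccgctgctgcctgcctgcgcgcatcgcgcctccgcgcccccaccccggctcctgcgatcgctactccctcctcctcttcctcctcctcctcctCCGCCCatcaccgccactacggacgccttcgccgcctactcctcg
Gabrb2, chr11:42420190-42420489, plus strand: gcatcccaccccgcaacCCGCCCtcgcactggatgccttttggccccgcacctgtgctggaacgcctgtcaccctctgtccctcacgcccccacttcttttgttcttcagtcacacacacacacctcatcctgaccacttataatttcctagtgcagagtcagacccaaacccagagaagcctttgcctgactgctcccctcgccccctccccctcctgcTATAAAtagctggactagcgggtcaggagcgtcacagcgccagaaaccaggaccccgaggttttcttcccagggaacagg
Glra2, chrX:165327344-165327643, minus strand: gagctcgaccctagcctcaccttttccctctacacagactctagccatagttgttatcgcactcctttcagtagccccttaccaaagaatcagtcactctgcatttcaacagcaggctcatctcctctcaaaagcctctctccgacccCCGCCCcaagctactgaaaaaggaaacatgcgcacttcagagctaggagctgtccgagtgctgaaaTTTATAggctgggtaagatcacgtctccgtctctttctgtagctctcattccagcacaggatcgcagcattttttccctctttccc
Chrnb2, chr3:89764583-89764882, minus strand: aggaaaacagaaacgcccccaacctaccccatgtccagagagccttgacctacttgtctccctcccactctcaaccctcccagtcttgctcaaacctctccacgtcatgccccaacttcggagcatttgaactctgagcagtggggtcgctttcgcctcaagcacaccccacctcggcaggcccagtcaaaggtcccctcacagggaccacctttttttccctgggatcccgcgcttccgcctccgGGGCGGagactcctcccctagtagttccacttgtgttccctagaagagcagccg

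All 8 tested genes matched an entry in the promoter table, with 11 windows in all. Of the windows printed, that of Gabra2 was the richest in G and C, at 70.0% with 25 CpG dinucleotides, against a median of 52.7% and 7 CpG over 32851 promoters. The windows of Gabrb2 and Chrnb2 were each at 59.0%, and that of Glra2 was at 50.3% with 9 CpG. The Gabrb2 window printed is the first of 3. The others, at 54.7% and 41.0%, held neither a GC box nor a TATA box. Over the 11 windows of the 8 genes, 7 held a GC box, among them the 4 printed, and 35.66% of all promoters hold one. A TATA box was in 2 of the 11, those printed for Gabrb2 and Glra2, at positions -30 and -36 from the start, and in 13.62% of promoters. The E-box CAGATG, searched on both strands without overlap between the motifs, occurred in no window of the 8 genes and in 17.15% of all promoters. The array probe sets do not read promoter use, so these letters are given as description. Several members lie side by side in the genome: 10 runs of adjacent members took in 21 of the 37 genes. Gabra2 is next to Gabrg1, Gabrb2 next to Gabra6, and Gabra4 next to Gabrb1. The start sites of Gabra4 and Gabrb1 lie 387 bases apart on chromosome 5, on opposite strands, each gene reading across the other's start. Gabrb1 has a second annotated start further along the chromosome.

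Of the GABA-A subunits, 2 rose with time. Gabra2, the alpha2 subunit, which is abundant in the developing forebrain, rose from 24 h to 48 h with either vector, 21.7-fold with CtrlGFP and 14.1-fold with Fezf2GFP. Gabrb2, the beta2 subunit, rose as well, 4.19-fold and 3.47-fold. No GABA-A subunit passed the test between the vectors at either time.

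The Gabra2 levels were 5.97, 5.78 and 5.28 with CtrlGFP and 8.40, 5.71 and 6.54 with Fezf2GFP at 24 h. At 48 h they were 10.76, 9.38, 9.51 and 10.81 with CtrlGFP and 11.10, 11.02, 10.32 and 10.34 with Fezf2GFP. Every array at 48 h lay above every array at 24 h, and Fezf2GFP 24 h replicate 1 was the highest of the early arrays. The log2 fold change with time was 4.44 (SE 0.55, adjusted p = 0.000328) with CtrlGFP and 3.81 (SE 0.55, adjusted p = 0.000913) with Fezf2GFP. Between the vectors it was 1.20 (SE 0.59, adjusted p = 0.608) at 24 h and 0.58 (SE 0.51, adjusted p = 0.66) at 48 h, and the groups overlapped at both times. Both time calls held under all 27 alternative settings. The size depended on the probe set. In a fit over 17407 probe sets, the other pair of Gabra2 probe sets above the dim level gave time changes of 1.33 and 2.02 with CtrlGFP (adjusted p = 0.201 and 0.0803) and 1.71 and 1.63 with Fezf2GFP (adjusted p = 0.0944 and 0.172), each in the same direction but none past the threshold.

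Gabrb2 levels at 24 h were 6.15, 6.24 and 6.17 with CtrlGFP and 8.02, 7.08 and 7.49 with Fezf2GFP. At 48 h they were 9.77, 7.13, 8.04 and 8.06 with CtrlGFP and 9.62, 9.10, 8.83 and 9.75 with Fezf2GFP. At 24 h all 3 Fezf2GFP arrays lay above all 3 CtrlGFP arrays, which lay close together, while at 48 h CtrlGFP replicate 1 was the highest of all arrays and the vectors overlapped. With time the log2 fold change was 2.07 (SE 0.47, adjusted p = 0.011) with CtrlGFP and 1.79 (SE 0.47, adjusted p = 0.025) with Fezf2GFP. Its differences between the vectors, 1.34 (SE 0.50, adjusted p = 0.385) at 24 h and 1.07 (SE 0.44, adjusted p = 0.247) at 48 h, did not pass. The CtrlGFP call was lost with only the groups compared in the fit (adjusted p = 0.068). The Fezf2GFP call was lost without Fezf2GFP 24 h replicate 2 (adjusted p = 0.119) or 3 (0.0893), without Fezf2GFP 48 h replicate 1 (0.0606) or 4 (0.0541), and with 2 of the other settings. The second Gabrb2 probe set gave 2.51 (adjusted p = 0.0231) with CtrlGFP and 1.79 (adjusted p = 0.104) with Fezf2GFP.

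Gabrb1, the beta1 subunit, lay near the dim level with CtrlGFP, at 4.60, 4.45 and 4.14 at 24 h and at 5.98, 4.16, 4.15 and 5.05 at 48 h. With Fezf2GFP it was 6.74, 5.03 and 4.55 at 24 h and 6.94, 6.82, 5.90 and 6.04 at 48 h. At 48 h only CtrlGFP replicate 1 reached into the Fezf2GFP range. The difference between the vectors there was 1.58 (SE 0.49, adjusted p = 0.113), and 1.05 (SE 0.56, adjusted p = 0.666) at 24 h. Without CtrlGFP 48 h replicate 1 the 48 h difference was 1.97 (adjusted p = 0.0464).

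Gabra4, the alpha4 subunit of extrasynaptic receptors, passed no test. Its group means were 6.19 ± 0.28 with CtrlGFP and 7.19 ± 0.61 with Fezf2GFP at 24 h (SD, n = 3 each), and 5.96 ± 1.72 and 6.59 ± 1.01 at 48 h (n = 4 each). The wide spread of the CtrlGFP 48 h group came with 1 array, replicate 2 at 3.45, against 6.43 to 7.32 in the other 3. Without it, the difference between the vectors at 48 h was -0.21 in place of 0.63. At 24 h its CtrlGFP and Fezf2GFP arrays did not overlap, but only narrowly. The highest CtrlGFP array was at 6.51 and the lowest Fezf2GFP array at 6.55. The difference there was 1.00 (SE 0.82, limma adjusted p = 0.727). In a fit over 17407 probe sets, the second Gabra4 probe set gave 0.81 (adjusted p = 0.714) at 24 h and 0.35 (adjusted p = 0.743) at 48 h.

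**Figure D2:**
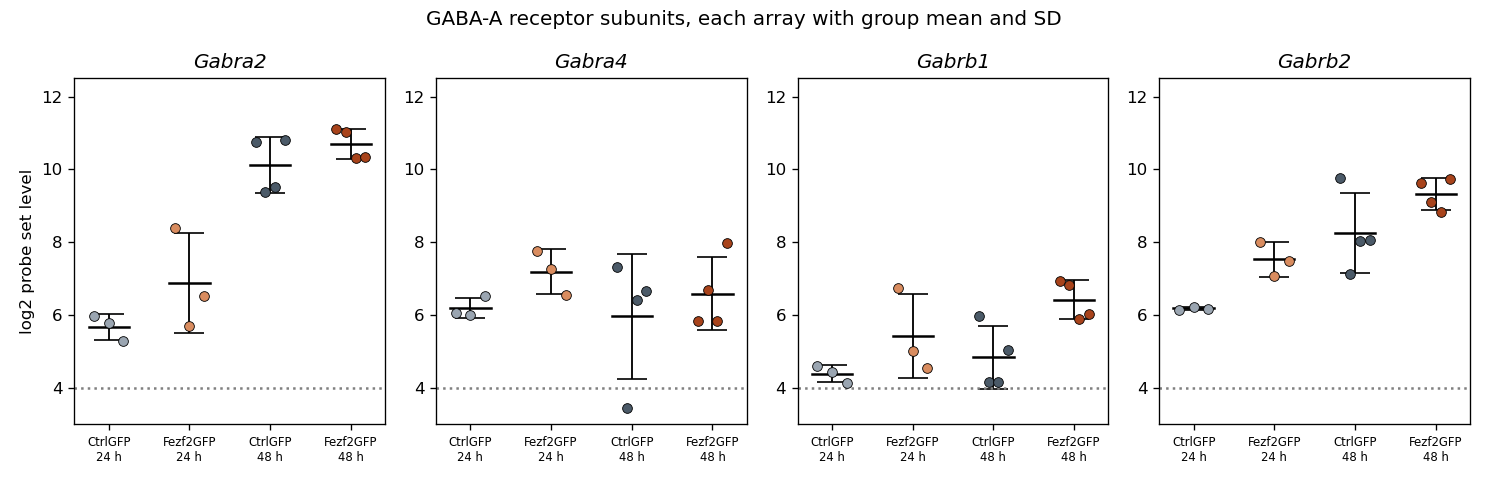
Log2 probe set level of the 4 tested GABA-A subunits on each of the 14 arrays (points), with the mean and SD of each group (bar) and the dim level of 4 (dotted). Gabra2 and Gabrb2 sit higher at 48 h than at 24 h, while Gabra4 has 1 CtrlGFP array at 48 h below the others of its group, at 3.45.

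Glycine receptor subunits separated into 1 that rose strongly and 1 whose differences, on the probe set used, were under 1 log2 unit in every comparison. Glra2, the alpha2 subunit of the embryonic glycine receptor, rose 18.4-fold from 24 h to 48 h with CtrlGFP, from early levels that may be background. At 24 h its level was also higher in every Fezf2GFP array than in every CtrlGFP array, but that difference did not pass the test.

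Glra2 was 4.79, 4.76 and 4.74 with CtrlGFP at 24 h and 8.87, 6.26 and 6.95 with Fezf2GFP. At 48 h it was 10.58, 7.75, 9.18 and 8.35 with CtrlGFP and 9.06, 8.55, 9.05 and 9.36 with Fezf2GFP. The 3 early CtrlGFP arrays thus lay together, below all others, and the vectors overlapped fully at 48 h. The SD of those 3 was 0.02, as small as in subunits below the dim level, such as Chrna1 at 0.04. Like those of Chrna1, they fell from replicate 1 to replicate 3. Whether they lie at the background of this probe set was not tested. If they do, the fold changes taken from them are lower bounds. With time the log2 fold change was 4.20 (SE 0.63, adjusted p = 0.000949) with CtrlGFP, which held under all 27 alternatives, and 1.64 (SE 0.63, adjusted p = 0.119) with Fezf2GFP. Between the vectors it was 2.59 (SE 0.67, adjusted p = 0.104) at 24 h and 0.04 (SE 0.58, adjusted p = 0.986) at 48 h. The test of the difference between these vector effects gave -2.56 (SE 0.89, unadjusted p = 0.0132, adjusted p = 0.819), so a vector effect at 24 h alone was not shown. Glra2 has a single probe set on the array.

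The 24 h difference of Glra2 passed (adjusted p = 0.0436) when CtrlGFP 48 h replicate 1, its highest array at 48 h, was left out of the fit. That array is in neither group compared at 24 h. The difference therefore stayed at 2.59, and only the spread pooled over the groups changed. The Fezf2GFP time difference passed without Fezf2GFP 24 h replicate 1 (2.40, adjusted p = 0.0221).

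Glrb, the beta subunit that anchors glycine receptors to gephyrin, had means of 10.72 ± 0.47 with CtrlGFP and 10.81 ± 0.11 with Fezf2GFP at 24 h (SD, n = 3 each), and 11.36 ± 0.19 and 11.24 ± 0.12 at 48 h (n = 4 each). Every array at 48 h lay above every array at 24 h within each vector. The time differences, 0.64 (SE 0.20, adjusted p = 0.0549) with CtrlGFP and 0.43 (SE 0.20, adjusted p = 0.201) with Fezf2GFP, did not pass. Between the vectors it differed by 0.09 (SE 0.21, adjusted p = 0.91) at 24 h and -0.11 (adjusted p = 0.831) at 48 h, and the sign of both changed under some of the alternative settings. In the fit over 17407 probe sets, the second Glrb probe set gave larger time changes with CtrlGFP, 1.01 (adjusted p = 0.229). With Fezf2GFP it gave 0.43 (adjusted p = 0.678). Its differences between the vectors were 0.73 (adjusted p = 0.773) at 24 h and 0.15 (adjusted p = 0.926) at 48 h.

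Among nicotinic subunits, Chrnb2 was the 1 subunit of the whole set that passed the test between the vectors. Chrnb2, the beta2 subunit that pairs with alpha subunits in the main neuronal nicotinic receptor of the forebrain, was 1.96-fold higher with Fezf2GFP than with CtrlGFP at 48 h. Chrna7, which forms receptors without a partner, had a lower mean with Fezf2GFP at both times, but neither difference passed.

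Chrnb2 at 48 h was 8.96, 9.63, 9.57 and 9.17 with CtrlGFP and 10.35, 10.21, 10.31 and 10.34 with Fezf2GFP. At 24 h it was 8.93, 9.26 and 9.01 with CtrlGFP and 10.01, 9.69 and 9.23 with Fezf2GFP. At 48 h the 4 Fezf2GFP arrays lay close together and above every CtrlGFP array, while at 24 h the vectors overlapped. The log2 fold change between the vectors was 0.97 (SE 0.19, adjusted p = 0.0158) at 48 h and 0.58 (SE 0.22, adjusted p = 0.412) at 24 h. The test of the difference between those effects did not pass (adjusted p = 0.998). The time difference was 0.27 (SE 0.21, adjusted p = 0.516) with CtrlGFP and 0.66 (SE 0.21, adjusted p = 0.0592) with Fezf2GFP. The 48 h call held under 25 of 27 alternatives. It was lost without CtrlGFP 48 h replicate 4 (0.92, adjusted p = 0.0552) and with the mean over its 3 probe sets (0.28, adjusted p = 0.205), of which the other pair never exceeded the dim level.

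Chrna7 was 7.62, 8.52 and 8.78 with CtrlGFP and 7.52, 7.90 and 7.54 with Fezf2GFP at 24 h. At 48 h it was 9.97, 8.33, 9.50 and 9.90 with CtrlGFP and 8.46, 8.45, 8.13 and 8.85 with Fezf2GFP. Of the CtrlGFP arrays at 48 h, only replicate 2 lay within the Fezf2GFP range. The differences between the vectors were -0.65 (SE 0.40, adjusted p = 0.692) at 24 h and -0.95 (SE 0.35, adjusted p = 0.187) at 48 h. Those with time were 1.12 (SE 0.37, adjusted p = 0.0693) with CtrlGFP and 0.82 (SE 0.37, adjusted p = 0.197) with Fezf2GFP. Without CtrlGFP 48 h replicate 2, the 48 h difference was -1.32 (adjusted p = 0.0216) and the CtrlGFP time difference 1.49 (adjusted p = 0.00431).

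**Figure D3:**
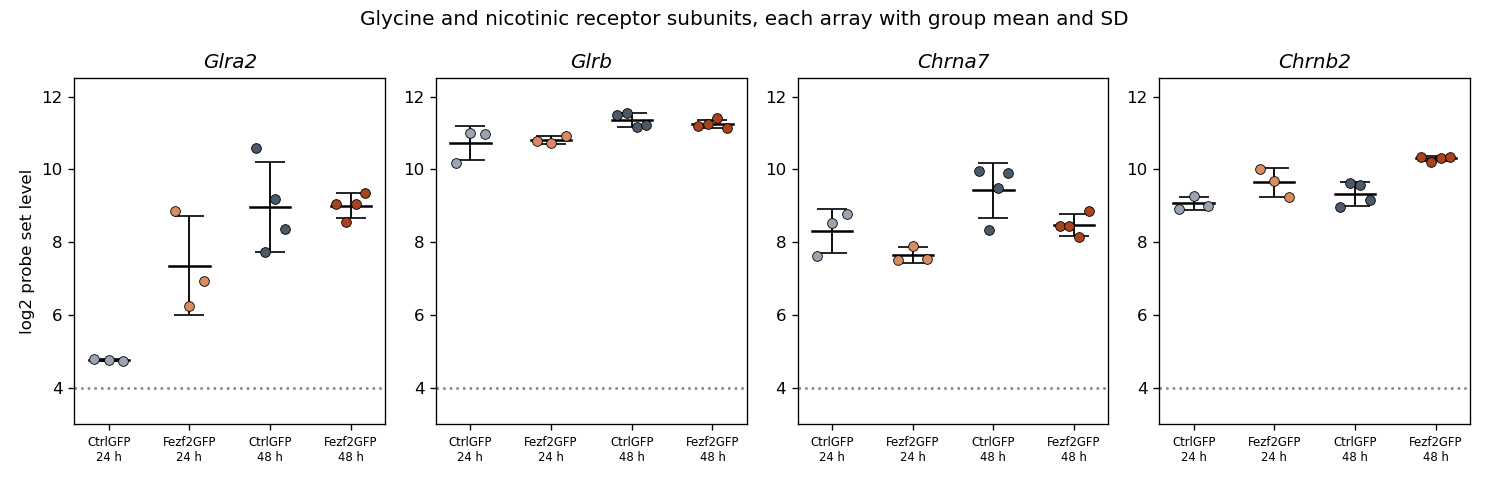
Log2 probe set level of the 2 tested glycine receptor subunits and the 2 tested nicotinic subunits on each of the 14 arrays (points), with group means and SDs (bars) and the dim level of 4 (dotted). The 3 CtrlGFP arrays at 24 h lie at 4.74 to 4.79 for Glra2, and the 4 Fezf2GFP arrays at 48 h lie above all CtrlGFP arrays for Chrnb2.

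The counts over the 8 tested subunits were as follows. At 24 h, 0 of 8 passed between the vectors (limma, adjusted p under 0.05), against 1.06% of all tested genes. At an unadjusted p under 0.05 there were 3 of 8. The share of all genes at that unadjusted level was not counted. Unadjusted counts, here and for the lists below, therefore have no background to be set against. At 48 h, 1 of 8 passed, against 3.13% of all. The test of the difference between the vector effects called 0 of 8, against 0.0971% of all, and 1 of 8 had an unadjusted p under 0.05. With time 3 of 8 rose with CtrlGFP, namely Gabra2, Gabrb2 and Glra2, against 12.6% called in either direction and 5.88% called higher. With Fezf2GFP, Gabra2 and Gabrb2 rose, 2 of 8, against 12.1% in either direction and 6.38% higher. None fell in any comparison.

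The number at 48 h moved with single arrays: it was 3 without CtrlGFP 48 h replicate 1 (Chrnb2, Gabrb1 and Gabrb2), 2 without replicate 2 (Chrnb2 and Chrna7) and 0 without replicate 4. At 24 h it was 1 (Glra2) without CtrlGFP 48 h replicate 1, an array that enters this comparison only through the pooled spread. The Fezf2GFP time number was 4 without Fezf2GFP 24 h replicate 1, and 1 without Fezf2GFP 24 h replicate 2 or 3, or Fezf2GFP 48 h replicate 1 or 4. Without both arrays of highest median, the numbers were 0 and 2 between the vectors at 24 h and 48 h, and 4 and 5 with time with CtrlGFP and Fezf2GFP.

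The median log2 fold change of the 8 between the vectors was 1.02 at 24 h and 0.60 at 48 h, beside 0.06 over all tested genes at each time. It was 0.42 at 24 h without Fezf2GFP 24 h replicate 1 and 0.14 at 48 h without CtrlGFP 48 h replicate 2, and with the mean of probe sets it was 0.40 at 24 h and 0.19 at 48 h. With time the medians were 0.88 with CtrlGFP and 0.90 with Fezf2GFP, beside -0.02 and -0.01. Over all 37 subunits, most of them below the dim level, the medians were -0.03, -0.02, -0.01 and -0.01 in the same order. Across 10266 tested genes, the difference between the vectors correlated with the annotated span of the gene (Spearman 0.27 at 24 h, 0.28 at 48 h). With time the values were 0.06 with CtrlGFP and 0.07 with Fezf2GFP. The medians over all tested genes are not matched to the 8 for span. Arrays of the vectors did not overlap for 3 of 8 at 24 h (Gabra4, Gabrb2 and Glra2), all higher with Fezf2GFP, against 12.6% of all genes in that direction, and for 1 of 8 (Chrnb2) at 48 h, against 7.35%. With time the arrays did not overlap for 4 of 8 with CtrlGFP (9.93% of all genes in that direction) and for 5 of 8 with Fezf2GFP (13.3%), all higher at 48 h. The comparisons share arrays, so their counts are not independent of each other.

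**Figure D4:**
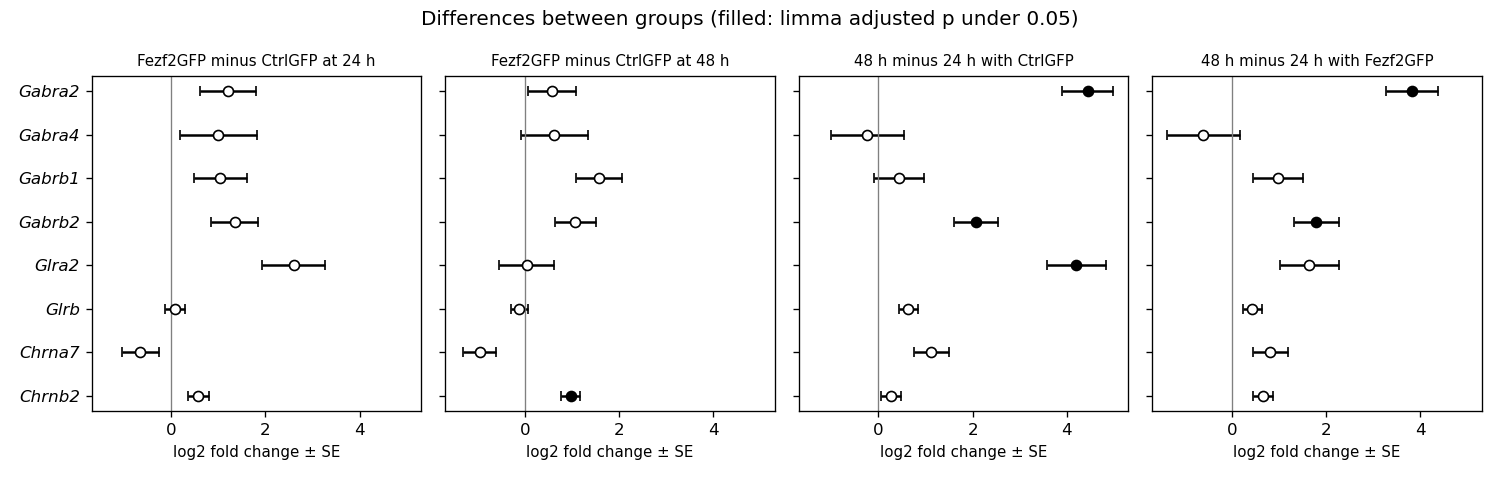
Log2 fold change with its SE for each of the 8 tested subunits in the 4 comparisons of 2 groups, with filled symbols for a limma adjusted p under 0.05 and a line at 0. Filled symbols are Chrnb2 between the vectors at 48 h, Gabra2, Gabrb2 and Glra2 with time in CtrlGFP, and Gabra2 and Gabrb2 with time in Fezf2GFP.

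Receptors for GABA and glycine are expressed by cortical interneurons, which enter the cortex from the subpallium, as well as by cells of the cortical lineage. Of 16 interneuron markers measured, 12 were tested and 0 passed in any comparison (limma), while Dlx6 and Nkx2-1 stayed below the dim level on all arrays. At an unadjusted p under 0.05 there were 4 and 1 between the vectors at 24 h and 48 h, and 2 with time with each vector. Of all tested genes 1.06% and 3.13% passed the adjusted test between the vectors, and 12.6% and 12.1% with time. The median log2 fold change of the 12 was 1.04 between the vectors at 24 h, 0.61 at 48 h, 0.89 with time with CtrlGFP and 0.47 with Fezf2GFP. The summed linear level of the 16 ranged from 386.7 to 631.6 with CtrlGFP and from 529.9 to 2823.1 with Fezf2GFP at 24 h. At 48 h it ranged from 535.8 to 3553.5 with CtrlGFP and from 1432.4 to 2435.5 with Fezf2GFP. The highest sums were those of CtrlGFP 48 h replicate 1 and Fezf2GFP 24 h replicate 1, and these arrays were also the highest of their groups for Glra2, Gabrb2 and Gabrb1.

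Without both of these arrays the time differences were 4.22 (adjusted p = 0.000192) with CtrlGFP and 4.58 (adjusted p = 0.000172) with Fezf2GFP for Gabra2. For Gabrb2 they were 1.56 (adjusted p = 0.0097) and 2.04 (adjusted p = 0.00324), and for Glra2 3.66 (adjusted p = 0.000178) and 2.40 (adjusted p = 0.00257). The Chrnb2 difference between the vectors at 48 h was 0.85 (adjusted p = 0.0292) without them. The Glra2 difference between the vectors at 24 h was 1.84 (adjusted p = 0.0784). At 48 h Gabrb1 and Gabrb2 then passed between the vectors, at 1.97 (adjusted p = 0.00754) and 1.58 (adjusted p = 0.0128). The CtrlGFP 48 h array left out was the highest of its group for both genes. Without it the interneuron sums of the vectors at 48 h no longer overlapped. They were 740.5, 1118.9 and 535.8 with CtrlGFP, against 1432.4 to 2435.5 with Fezf2GFP. The FACS sort was for electroporated cells, and how far it left out interneurons without the vector was not tested. The part of interneuron RNA in the differences that remain was not tested.

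The sum of 9 Cajal-Retzius cell markers was higher with Fezf2GFP: 1488.1 to 2430.4 against 589.0 to 1430.8 at 24 h, and 1901.4 to 4006.9 against 208.6 to 1144.9 at 48 h. Reln had the highest group means of the 9. Its differences between the vectors, 1.59 (limma adjusted p = 0.55) at 24 h and 2.48 (adjusted p = 0.0508) at 48 h, did not pass. Trp73, Lhx1 and Lhx5, which define these early neurons, were below the dim level on all arrays, and of 5 markers tested 1, Calb2, rose with the vector at 48 h. Of all tested genes 3.13% passed in that comparison. The sum of 9 neuron markers ran from 56907.0 to 83766.8 with CtrlGFP at 24 h and from 87953.2 to 112826.5 at 48 h, without overlap, and with Fezf2GFP from 89758.2 to 92782.5 and from 109756.5 to 137507.5. The sum of 8 radial glia markers ran the other way, from 81564.9 to 88260.1 and then from 53626.1 to 66354.0 with CtrlGFP, and from 75870.8 to 88794.2 and then from 48842.2 to 75033.0 with Fezf2GFP. Between the vectors at 48 h, 1 of the 8, Nes, was higher with Fezf2GFP (1.30, adjusted p = 0.00472). Of 7 intermediate progenitor markers 1, Gadd45g, was lower there (-1.57, adjusted p = 0.00441), and 0 of the 9 neuron markers passed. Of 4 oligodendrocyte precursor markers 2, Olig1 and Olig2, were tested. Both rose with time with CtrlGFP, where the sum of the 4 went from 48.7 to 78.6 up to 139.7 to 852.0. Of all tested genes 5.88% were called higher there. The other precursor markers did not rise with them. Sox10 was below the dim level on all arrays, and Pdgfra, not tested, had CtrlGFP means of 4.17 at 24 h and 3.83 at 48 h. Of microglia markers 7 of 8, and of endothelial markers 5 of 6, were below the dim level on all arrays. The part of these cell types in the rise of Gabra2, Gabrb2 and Glra2 and in the Chrnb2 difference was not tested.

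**Figure D5:**
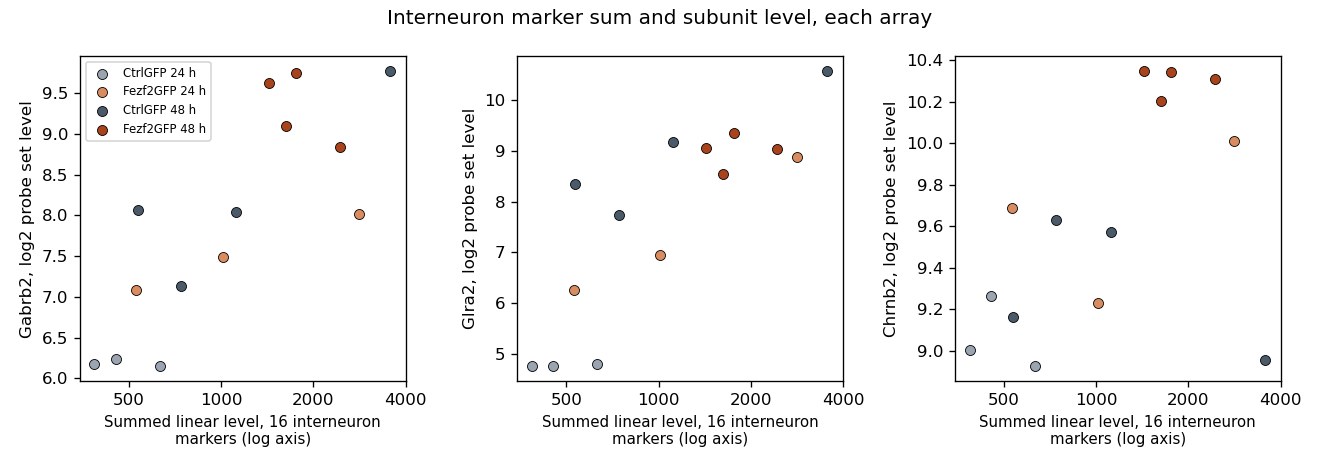
Log2 probe set level of Gabrb2, Glra2 and Chrnb2 (vertical axis) against the summed linear level of 16 interneuron markers (horizontal log axis) on each of the 14 arrays, coloured by group. CtrlGFP 48 h replicate 1 (3553.5) and Fezf2GFP 24 h replicate 1 (2823.1) have the highest sums; points of a group share vector and time.

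Among partners of the nicotinic receptors, 9 of 18 listed genes were tested. With time 3 of 9 rose with CtrlGFP and 3 of 9 with Fezf2GFP, where 5.88% and 6.38% of all tested genes were called higher, and none fell. Between the vectors 0 of 9 passed at 24 h and 0 at 48 h (limma), with 2 and 0 at an unadjusted p under 0.05. Lypd6b, a Ly6-family protein that modulates nicotinic receptors, had means of 3.56 ± 0.55 and 3.32 ± 0.69 at 24 h (SD, n = 3) with CtrlGFP and Fezf2GFP, and of 7.97 ± 0.29 and 8.08 ± 0.57 at 48 h (n = 4). It was mostly below the dim level at 24 h and above it on every array at 48 h. With each vector 2 of 3 arrays at 24 h were below the dim level. With those set to the dim level, the time differences were at least 3.91 with CtrlGFP and 4.07 with Fezf2GFP (adjusted p of the fit 2.71e-05 and 1.96e-05). Ly6h, a Ly6-family protein that restrains alpha7 receptors, rose by 3.07 (SE 0.44, adjusted p = 0.000677) and 2.05 (SE 0.44, adjusted p = 0.00848). Lypd6 rose with Fezf2GFP (1.92, SE 0.27, adjusted p = 0.000839), and its difference with CtrlGFP was 0.75 (adjusted p = 0.0945). Tmem35a, the chaperone NACHO that assembles alpha7 and other nicotinic receptors, rose with CtrlGFP (1.73, SE 0.43, adjusted p = 0.0174) and differed by 0.67 (adjusted p = 0.382) with Fezf2GFP.

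Of 20 listed genes for the scaffold and trafficking of inhibitory synapses, 16 were tested, and 0 passed between the vectors at 24 h or 48 h (limma), with 0 and 4 at an unadjusted p under 0.05. With CtrlGFP 1 of 16 rose with time, a share near the 5.88% of all tested genes, and with Fezf2GFP 3 of 16, against 6.38%, and none fell. Lhfpl4, which holds GABA-A receptors at synapses, rose by 0.81 (SE 0.17, adjusted p = 0.00767) with Fezf2GFP. Nlgn2, the neuroligin of inhibitory synapses, rose by 0.82 (SE 0.18, adjusted p = 0.0113). Plcl2, a protein that binds GABA-A receptor beta subunits, rose by 0.64 (adjusted p = 0.0469) with CtrlGFP and 0.66 (adjusted p = 0.04) with Fezf2GFP, calls that held under 7 and 11 of 27 alternatives.

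The chloride gradient decides which way GABA-A and glycine receptors drive the membrane. Of 18 listed genes for chloride and related transport, 12 were tested: 1 rose with the vector at 24 h and 0 at 48 h (limma; 5 at an unadjusted p under 0.05), 2 rose and 1 fell with time with CtrlGFP, and 3 rose with Fezf2GFP. Over all tested genes 1.06% and 3.13% passed between the vectors, and 12.6% and 12.1% with time. Slc4a10, a sodium-dependent bicarbonate transporter that affects chloride, was 4.53, 7.04 and 8.22 with CtrlGFP at 24 h and 10.70, 10.42 and 10.73 with Fezf2GFP. Every Fezf2GFP array lay above every CtrlGFP array, and the difference was 4.02 (SE 0.72, adjusted p = 0.0142). It was 2.99 (adjusted p = 0.00542) without both arrays of highest median, and the call was lost without Fezf2GFP 24 h replicate 1 (adjusted p = 0.0708) or 3 (0.0612), and held under 22 of 27 alternatives. At 48 h the difference was 2.41 (adjusted p = 0.0558), again without overlap.

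The anion exchanger Slc4a3 rose with time by 1.38 (adjusted p = 0.00372) with CtrlGFP and 1.65 (adjusted p = 0.00158) with Fezf2GFP. Wnk3, a kinase that regulates chloride cotransporters, rose by 0.96 (adjusted p = 0.0323) and 1.14 (adjusted p = 0.0143), calls that held under 20 and 25 of 27 alternatives. Its relative Wnk2 rose by 0.79 (adjusted p = 0.0228) with Fezf2GFP, which held under 24 of 27. The potassium-chloride cotransporter Slc12a7 had a time difference of -1.08 (adjusted p = 0.0356) with CtrlGFP, a call that held under 17 of 27 alternatives.

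Of 13 listed genes for GABA and glycine synthesis, transport and breakdown, 8 were tested and 2 fell with time with CtrlGFP, where 12.6% of all tested genes passed in either direction. With Fezf2GFP 0 of 8 passed with time (limma), and between the vectors 0 at 24 h and 0 at 48 h, with 1, 3 and 2 at an unadjusted p under 0.05. Both that fell were serine hydroxymethyltransferases, which convert serine and glycine: Shmt1 (-1.15, SE 0.21, adjusted p = 0.00332) and Shmt2 (-0.73, SE 0.22, adjusted p = 0.0482). The Shmt2 call held under 7 of 27 alternatives and the Shmt1 call under 27. Of 10 listed genes of metabotropic counterparts only Gabbr1, a subunit of the GABA-B receptor, was tested, and it passed in no comparison. Its time difference with Fezf2GFP was 1.04 (adjusted p = 0.0579).

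Dbi, a peptide that binds the benzodiazepine site of GABA-A receptors, and Tspo, its mitochondrial binding protein, passed the F test (adjusted p = 0.0457 and 0.0139) but no comparison of 2 groups. Dbi averaged 14.19 ± 0.33 and 13.74 ± 0.09 at 24 h (SD, n = 3) with CtrlGFP and Fezf2GFP, and 13.99 ± 0.19 and 13.35 ± 0.37 at 48 h (n = 4). Tspo averaged 7.29 ± 1.35 and 5.81 ± 0.17, and then 5.69 ± 0.74 and 4.66 ± 0.22. These partner lists were chosen with earlier results of these arrays known.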

How the data were processed

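Per the labels' protocols, RNA of the sorted cells went through 2 successive linear amplifications before hybridization to 14 mouse arrays. The table holds log2 values deposited by the authors, made with GCRMA per the submitters' processing notes, which correct background, normalize between arrays and summarise probes in ways kept here. Its version and settings, and the build of the array annotation, were not given in the sources used here. Precision is limited by the small number of arrays and, for dim genes, by their signal over background.

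Of 45037 probe sets, 34945 had 1 gene symbol in the platform annotation, 932 had several and 9160 none. Each of the 18193 symbols was read from its probe set of highest mean, and tested if above 4 in at least 3 of 14 arrays. A single fit with 4 group means covered all 14 arrays (limma 3.58.1, lmFit and eBayes, R 4.3.3, 10 residual degrees of freedom), with Benjamini-Hochberg adjustment over all genes tested and a threshold of 0.05; every adjusted p is from limma. The comparisons were between the vectors at each time, between the times for each vector, the difference of the vector effects, and an F test over the groups. The fit was checked on simulated data. The members and lists were chosen with earlier results of these data known. Subunits that passed any test were given array by array, other tested subunits by group means, and untested ones by range. Partner genes were named where they passed a comparison of 2 groups (at most 6 per list), otherwise the 2 with the smallest F p. Alternatives covered the filter, probe set choice, normalization, prior, array weights, gene span, replicate number, samples in the fit and each array left out; leaving out 2 arrays together and the use of other probe sets were added after seeing the data. Promoter sequences are from RefSeq (GRCm38.p6).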

Additional observations from a re-analysis of the deposited data

Results flagged for a closer look

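Among 25 genes, the 8 tested subunits and the named partners, each group of 4 arrays was checked for 1 array whose gap to the nearest of the other 3, divided by the range of the group, exceeded Dixon's critical value for 4 values. Of 50 such groups 4 held one, and chance alone gives about 1 in 20. In CtrlGFP 48 h replicate 2, Nlgn2 was high at 11.60, against 11.16, 11.17 and 11.20 in the others. In the same array Tmem35a was low at 10.58, against 11.40, 11.42 and 11.45. In Fezf2GFP 48 h replicate 2, Wnk3 was low at 8.84, against 9.52, 9.53 and 9.59. In Fezf2GFP 48 h replicate 1, Gabbr1 was low at 11.31, against 11.94, 12.02 and 12.03. None of the 8 receptor subunits was among the 4. The nearest was Gabra4 in CtrlGFP 48 h replicate 2, at 3.45, whose gap was 0.770 of its group's range, since the other arrays were themselves spread from 6.43 to 7.32.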

How the results depend on the processing

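Each result was recomputed under 27 alternatives, except that the difference of the vector effects and the F test have no fit on only the groups compared. Numbers of subunits called between the vectors at 24 h were 5 with array weights and 0 to 1 with each array left out. At 48 h they were 0 with the mean of probe sets, 2 with array weights, 2 with the replicate number as a block, 0 to 3 with each array left out, 2 without both arrays of highest median and 3 without both of highest interneuron sum. With time with Fezf2GFP they were 1 without the filter, 1 with the probe set of largest variance, 7 with array weights, 1 to 4 with each array left out, and 5 without either pair of arrays. With CtrlGFP they were 3 to 4, and in the F test 4 to 5, with each array left out. The replicate block added Gabrb1 at 48 h (1.58, adjusted p = 0.0391). The labels do not say whether replicate numbers pair the arrays. Of 19 same-numbered pairs 5 correlated above 0.1 (range -0.40 to 0.32). Pairs of the vectors at the same time correlated at 0.32, 0.22 and -0.006 at 24 h. At 48 h the values were -0.06, 0.29, 0.02 and 0.27, so whether the numbers pair arrays was not settled. The array weights stopped before reaching their tolerance. Over all genes, the calls between the vectors were 109 at 24 h (42 to 2030 under the alternatives) and 322 at 48 h (168 to 550), those with time 1294 with CtrlGFP (797 to 3077) and 1241 with Fezf2GFP (643 to 3133), those for the difference of vector effects 10 (0 to 240), and in the F test 2119 (1679 to 4966), each highest with array weights. Medians of the subunits without the filter were -0.025 and -0.0209 between the vectors, 0.0054 for the difference of vector effects, -0.011 with time with CtrlGFP and -0.0076 with Fezf2GFP; the difference of vector effects had a median of 0.36 without both arrays of highest interneuron sum. None of the values that changed sign was called. For Gabra4 the vector difference at 48 h was -0.0509 with array weights, -0.21 to 1.08 with each array left out and -0.21 without both arrays of highest median, and the CtrlGFP time difference was 0.0457 with the mean of probe sets, 0.54 with array weights, -0.68 to 0.61 with each array left out and 0.54 without both arrays of highest median. For Glra2 the vector difference at 48 h was -0.0891 with quantile normalization, -0.48 with array weights, -0.19 with the gene span trend removed, -0.37 to 0.58 with each array left out and -0.37 without both arrays of highest median. For Glrb the vector difference at 24 h was -0.01 with quantile normalization, -0.21 with array weights, -0.0743 with the span trend removed, -0.19 to 0.23 with each array left out and -0.19 without both arrays of highest median, and at 48 h it was 0.0172 with the mean of probe sets and 0.15 with the probe set of largest variance. The cause of these changes was not tested.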
